A study of Homo sapiens with 26 samples.

Results

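Complement is a set of plasma and membrane proteins, and the 9 genes followed here encode proteases, central components and regulators of it: C1R, C1S, C3, CFB, C5, CFI, C4BPA, C4BPB and CD55. They were picked by gene symbol, through the Ensembl identifiers of the deposited tables, out of 62778 genes listed in 3 count tables. The choice was made with earlier results of these data known. The 26 RNA libraries came from Panc10.05, BxPC3 and AsPC-1, 3 established lines of human pancreatic ductal adenocarcinoma, in which the transcription factor HNF4α was induced or repressed. In Panc10.05, 2 libraries each carried doxycycline-induced HNF4α isoform P1-a2, isoform P2-a8 or the negative control (NC, a GFP construct by its title), and doxycycline was given at 12.5 ng/mL to the P2-a8 cells but at 25 ng/mL to the P1-a2 and control cells. In BxPC3 the same 3 groups of 2 libraries all received 500 ng/mL, and the control title reads EV. In AsPC-1, CRISPR interference was aimed at the P1 isoforms of HNF4A (guides sgP1E and sgP1J), at the P2 isoforms (sgP2D and sgP2G) or at both (sgDual2 and sgDual3), with 2 libraries for each guide and 2 for the control sgNC. The labels name neither the promoter driving the transgenes nor the repressor protein, and they do not say that replicates were separate cultures, so p-values measure the spread between these libraries, which may be technical. Each group is a single line, and in Panc10.05 the isoform and the dose changed together.

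Complement works as a cascade of proteolytic cleavages. C1r and C1s are the serine proteases of the C1 complex, which opens the classical pathway; C3 is the component on which all pathways meet, factor B (CFB) supplies the protease of the alternative pathway C3 convertase, and C5 is the step that leads to the membrane attack complex. Factor I (CFI) degrades C3b and C4b, C4b-binding protein (an α chain from C4BPA and a β chain from C4BPB) serves as its cofactor for C4b, and CD55, or decay-accelerating factor, is a membrane-anchored protein that speeds the decay of the convertases. The liver makes most of the soluble proteins, where HNF4α is a major regulator of genes for secreted proteins, while epithelial cells, tumour cells included, commonly carry CD55.

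C4BPB, C4BPA and CD55 lie in this order on the plus strand of one stretch of chromosome 1 (GRCh38, GENCODE v29), and all 3 rose when both classes of HNF4A isoform were repressed, so the sequences around their starts are shown. C4BPB spans chr1:207088842-207099993, C4BPA spans chr1:207104262-207144972, 4.3 kb further on, and CD55 spans chr1:207321376-207386804, 176.4 kb beyond C4BPA. The windows come from RefSeq (GRCh38.p14) and run from 250 bases before to 50 bases after an annotated start, 5′ to 3′ on the plus strand. Capitals mark AGGTCA, the half-site shared by many nuclear receptors.
C4BPB, chr1:207088610-207088909: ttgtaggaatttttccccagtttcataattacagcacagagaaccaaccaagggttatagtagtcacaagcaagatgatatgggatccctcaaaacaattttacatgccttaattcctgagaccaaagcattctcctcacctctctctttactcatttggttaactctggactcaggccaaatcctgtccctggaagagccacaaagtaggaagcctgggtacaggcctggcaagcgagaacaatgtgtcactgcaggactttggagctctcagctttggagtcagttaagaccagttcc
C4BPB, later start, chr1:207088989-207089288: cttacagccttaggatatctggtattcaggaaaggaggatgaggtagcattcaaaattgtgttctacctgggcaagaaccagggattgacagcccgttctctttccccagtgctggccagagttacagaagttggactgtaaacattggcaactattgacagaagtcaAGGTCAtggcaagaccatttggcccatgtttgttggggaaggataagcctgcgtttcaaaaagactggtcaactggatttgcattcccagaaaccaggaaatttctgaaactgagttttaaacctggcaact
C4BPA, chr1:207103983-207104282: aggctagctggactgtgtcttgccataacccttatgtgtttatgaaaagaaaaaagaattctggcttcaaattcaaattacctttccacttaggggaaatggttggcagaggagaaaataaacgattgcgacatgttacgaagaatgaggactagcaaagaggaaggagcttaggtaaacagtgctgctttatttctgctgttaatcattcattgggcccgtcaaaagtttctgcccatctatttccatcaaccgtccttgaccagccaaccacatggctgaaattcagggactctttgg
CD55, chr1:207321428-207321727: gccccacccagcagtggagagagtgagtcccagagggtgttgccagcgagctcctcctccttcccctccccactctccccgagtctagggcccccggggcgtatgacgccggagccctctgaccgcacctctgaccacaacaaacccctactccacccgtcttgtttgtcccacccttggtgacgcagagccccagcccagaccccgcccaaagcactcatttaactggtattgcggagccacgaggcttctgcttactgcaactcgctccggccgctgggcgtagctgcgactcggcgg

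Of the 9 genes, 7 had such windows, 11 windows in all, with none for C3 or C1S. The motif CAAAGTCCA, which resembles the direct-repeat sites bound by HNF4α, was searched as exact letters on both strands. It was in 0 of the 11 windows, against 0.384% of 35116 windows of all genes. With so low a share, 0 of 11 says nothing about these genes, and near matches were not counted. AGGTCA, also searched on both strands, was in 2 windows, both of C4BPB and overlapping each other, so that they hold the same copy, which starts 82 bases before the second start shown. Over all genes 13.8% of windows held AGGTCA. A match is only a run of letters and no binding was measured here.

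Total counts per library were 34618745 to 46827673 in Panc10.05, 26369154 to 37483772 in BxPC3 and 26079388 to 50662077 in AsPC-1. Levels are given as CPM (counts relative to library size), scaled by TMM factors within each line. The epithelial markers summed to 5824 CPM or more in each library, although KRT7 was nearly absent from AsPC-1 (0.503 to 8.47 CPM). The 4 leukocyte markers summed to 3.05 to 9.86 CPM, and among them PTPRC had at most 5 counts in a library, CD3E was at 0 in AsPC-1 and PTPRC at 0 in Panc10.05. The 4 fibroblast markers summed to at most 12.5 CPM, with DCN at 0 in Panc10.05; endothelial markers stayed at or under 9.12 CPM, and ALB, which defines hepatocytes, had at most 5 counts. The sum of the 3 hepatocyte markers moved with the groups: it was 31.6 to 32.4 CPM in BxPC3 NC, 21.8 to 21.9 with P1-a2 and 27.0 to 32.2 with P2-a8, most of it CPS1, and in Panc10.05 it was 3.48 to 4.64 in NC and at most 0.930 with an isoform. The leukocyte sum was 6.93 to 7.08 CPM in Panc10.05 NC and 8.83 to 9.86 with P1-a2, and 3.05 to 3.91 in BxPC3 NC and 4.71 to 5.14 with P1-a2. Single markers of other cell types that passed the test against NC were CPS1 (-4.01 and -2.60 with P1-a2 and P2-a8 in Panc10.05, -0.54 with P1-a2 in BxPC3), CD68 (0.45 and 1.26 with P1-a2 in Panc10.05 and BxPC3), PDGFRB (1.28 with P1-a2 in Panc10.05), and CD14 (1.42) and COL1A1 (0.40) with P2-a8 in Panc10.05. In AsPC-1 the marker that passed against sgNC was KRT7 with sgDual (2.19). The part of these shifts in the results below was not tested. The epithelial sum was also higher with either isoform than in NC in both lines, but its markers did not all rise. With P1-a2 in Panc10.05 CDH1 (-0.61) and KRT7 (-0.27) fell and passed. There EPCAM (0.47), KRT8 (0.73) and KRT18 (0.73) rose and passed, and KRT19 (0.11) did not pass. In BxPC3 KRT7 did not pass with either isoform, nor did KRT19 with P1-a2. HNF4A, the targeted gene, moved in the labelled direction in each group. It was 0.149 ± 0.129 CPM in Panc10.05 NC (SD, n = 2), 11.8 ± 1.61 with P1-a2 and 37.6 ± 0.00506 with P2-a8, and in BxPC3 it was 0.771 ± 0.434, 10.7 ± 1.32 and 13.4 ± 1.15. In AsPC-1 it was 213 ± 9.95 CPM in sgNC (n = 2), 129 ± 18.4 in sgP1, 86.5 ± 7.74 in sgP2 and 7.99 ± 4.84 in sgDual (n = 4 each, from 2 guides with 2 libraries each). The drop passed the test for sgDual (adjusted p 6.25e-06) but not for sgP1 (adjusted p 0.615) or sgP2 (0.0751), although no library of either overlapped sgNC. For sgP2 it passed in 3 of 16 alternatives, each at -1.30. These were DESeq2 (adjusted p 0.0367), 7 groups by guide (0.0382) and the fit of those 2 groups alone (0.000223). For sgP1 it passed in none.

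Expression of the complement genes differed by line before any change in HNF4A. Among control libraries C3 was highest in BxPC3, at 110 ± 2.15 CPM, against 3.71 ± 0.735 in Panc10.05 and 0.543 ± 0.231 in AsPC-1 (SD, n = 2 each). C4BPB was at 34.5 ± 3.06 CPM in AsPC-1 controls and at or under 1.08 CPM in each control library of the other lines. CD55 was the most abundant of the 9 per length in every line, at 19.1 CPM per kb in Panc10.05 NC, 27.5 in BxPC3 NC and 49.0 in AsPC-1 sgNC. C4BPA was found only in AsPC-1: it had at most 1 count in each of the 12 libraries of the other lines, where a count of 0 allows up to 0.0867 CPM in Panc10.05 and up to 0.114 CPM in BxPC3 at the smallest library, for counting error only. CFI had at most 5 counts in any Panc10.05 library. After the filter on low counts, 7 of 9 members were tested in Panc10.05 (not CFI or C4BPA), 8 in BxPC3 (not C4BPA) and 9 in AsPC-1. Each line was scaled separately, so levels set across lines are descriptive. In bulk RNA, fewer cells expressing a gene and less RNA per cell cannot be told apart.

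**Figure D1:**
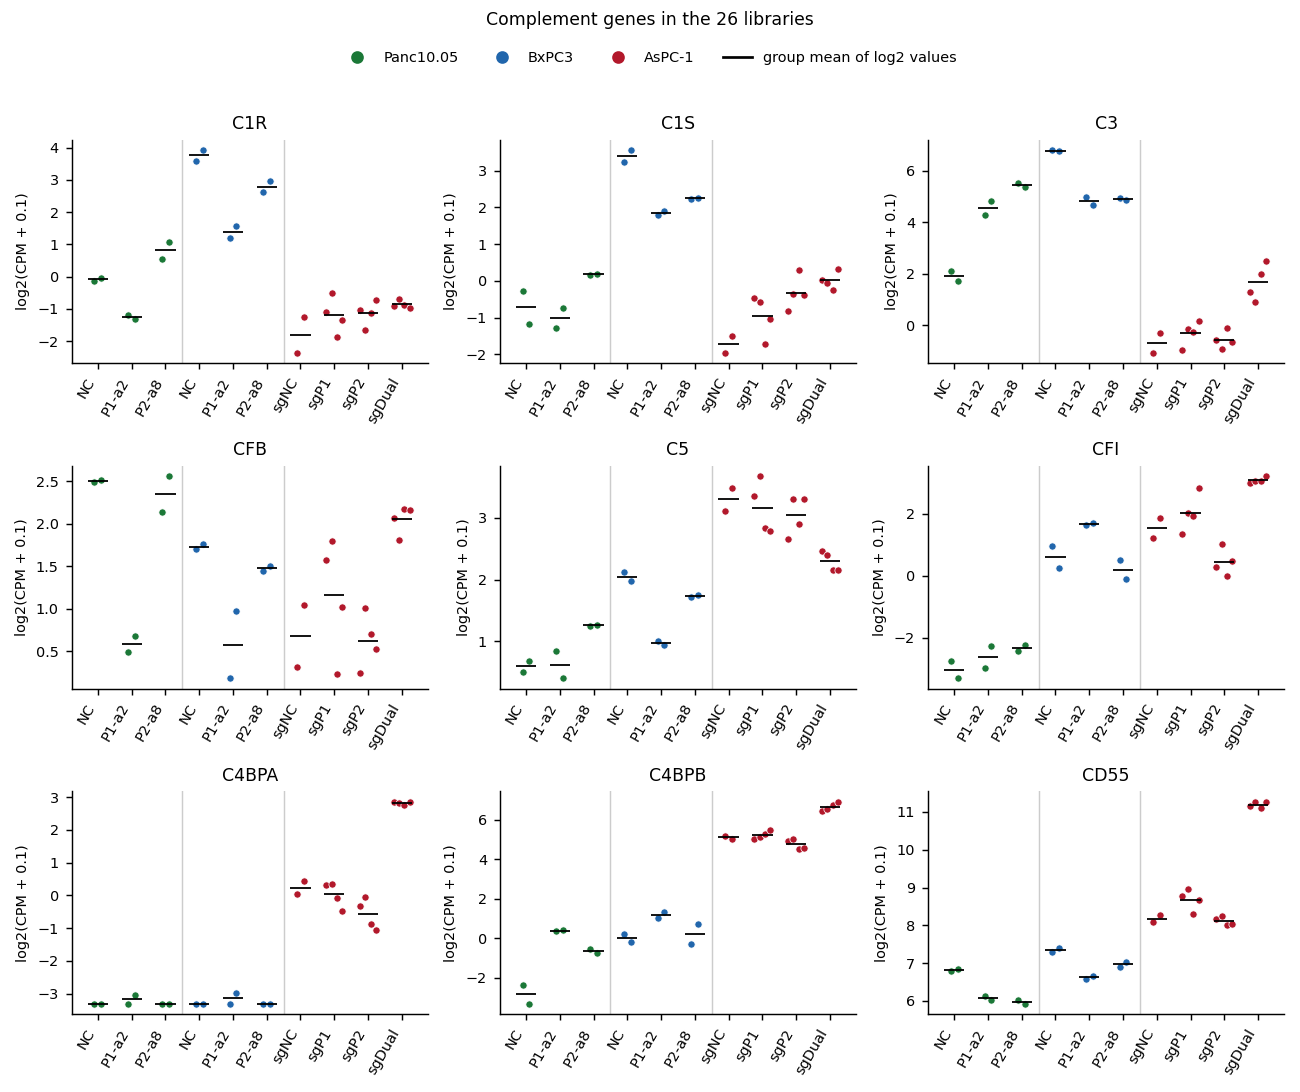
Level of each of the 9 genes in each of the 26 libraries, as log2(CPM + 0.1), by group within Panc10.05 (green), BxPC3 (blue) and AsPC-1 (red); horizontal bars are group means of the log2 values. C3 is high in BxPC3 controls and low in AsPC-1, C4BPA is found only in AsPC-1, and the 4 sgDual libraries are above the other AsPC-1 libraries for CD55, C4BPA, C4BPB, C3, CFB and CFI.

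Among the comparisons with control, dual repression moved the most members upward. A member was counted as changed at an adjusted p under 0.05 in edgeR's quasi-likelihood test, with the Benjamini-Hochberg adjustment over all genes tested in that line. For AsPC-1 both guides of a target were pooled as a group, and counts from fits by guide are given further below. With sgDual against sgNC 8 of 9 members changed, 7 up and 1 down, where 35.6% of the 16992 genes tested changed (17.8% in each direction), and the members' median log2 change was 1.57 against 0.0012 over all genes. The median was 0.52 over the tested genes of a wider complement list, described further below. Because the members were chosen with earlier results of these data known, their counts and medians are descriptions. With sgP1 alone 0 of 9 changed (0.265% of all genes), and with sgP2 alone 0 of 9 (3.42%; 1.66% higher and 1.76% lower). At an unadjusted p under 0.05, 1516 genes passed for sgP1 and 3025 for sgP2. Members among them were C1S and CD55 for sgP1 and C1S, CFI and C4BPA for sgP2. DESeq2 called 1 and 2 members, but its count over all genes is not given here. Calls over all genes moved with the setting, to 1242 for sgP1 without guide sgP1J and 1905 for sgP2 by guide. P1-a2 in Panc10.05 changed 5 of 7 members (62.0% of all genes), 2 up (31.5%) and 3 down (30.5%), and P2-a8 changed 6 of 7 (46.2%), 5 up (23.7%) and 1 down (22.5%). Without any 1 library the P2-a8 count was 4 or 5. In BxPC3 P1-a2 changed 8 of 8 (32.0% of all genes), 2 up (17.1%) and 6 down (14.9%), and P2-a8 changed 4 of 8, all down (6.99%, and 2.69% for lower alone; the 1232 genes called over the whole table became 495 without NC replicate 2, where 2 members passed). Within a line these comparisons share their control libraries, so their counts are not independent of each other.

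**Figure D2:**
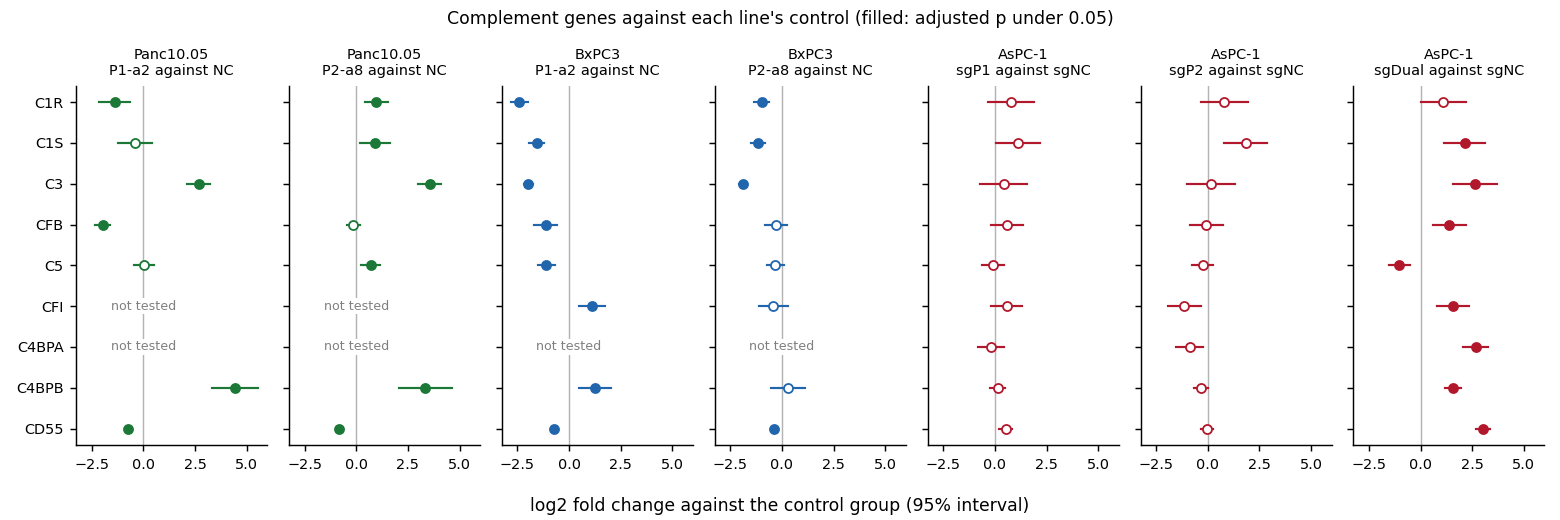
log2 fold change of each member against its line's control group, with the 95% interval from edgeR's quasi-likelihood fit; filled points have an adjusted p under 0.05. CD55 is below 0 in all 4 induced comparisons and at 3.02 with sgDual, and C3 is above 0 in Panc10.05 and below 0 in BxPC3.

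The classical pathway proteases fell in BxPC3 with either isoform. C1R was 12 and 15.1 CPM in the NC libraries, 2.20 and 2.84 with P1-a2 and 6.03 and 7.65 with P2-a8. The 3 groups did not overlap, with P1-a2 lowest. C1R was 5.36-fold lower with P1-a2 (log2 change -2.42, SE 0.19, adjusted p 3.36e-06) and 1.99-fold lower with P2-a8 (-0.99, SE 0.17, adjusted p 0.00422), and P1-a2 was below P2-a8 by 1.43 (log2 change -1.43, SE 0.19, adjusted p 0.000489). C1S was 9.26 and 11.7 CPM in NC, 3.39 and 3.65 with P1-a2 and 4.63 and 4.65 with P2-a8. Its groups did not overlap either. C1S fell with P1-a2 (-1.58, SE 0.16, adjusted p 2.38e-05) and with P2-a8 (-1.18, SE 0.15, adjusted p 0.000781), while the isoforms differed by -0.40 with an interval of -0.76 to -0.03 that did not pass (adjusted p 0.113). Without NC replicate 2 the C1R fall with P2-a8 missed the threshold (adjusted p 0.0565).

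In Panc10.05 both proteases were scarce, and both were lower with P1-a2 than with P2-a8. Dose and HNF4A RNA differed between those groups as well. Against NC only C1R passed in opposite directions with the isoforms. C1R was 0.817 and 0.869 CPM in NC, 0.334 and 0.304 with P1-a2 and 1.37 and 2 with P2-a8, so P1-a2 was below and P2-a8 above the control libraries. It fell with P1-a2 (-1.39, SE 0.37, adjusted p 0.00122) and rose with P2-a8 (0.98, SE 0.29, adjusted p 0.00429), a rise that was lost without P2-a8 replicate 2 (0.71, adjusted p 0.117). The direct comparison of P1-a2 with P2-a8 was -2.37 (SE 0.33, adjusted p 1.17e-07). C1S was 0.720 and 0.348 CPM in NC, 0.308 and 0.5 with P1-a2 and 1.03 and 1.04 with P2-a8. P2-a8 was above both other groups, which overlapped. C1S rose with P2-a8 (0.92, SE 0.36, adjusted p 0.0325), but not by DESeq2 (adjusted p 0.156) or without NC replicate 2 (0.52, adjusted p 0.326), P2-a8 replicate 1 (adjusted p 0.1) or P2-a8 replicate 2 (0.0858), and without NC replicate 1 the rise was 1.57. With P1-a2 its change was -0.41 (interval -1.24 to 0.42), and P1-a2 was below P2-a8 (-1.33, SE 0.37, adjusted p 0.00274).

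In AsPC-1 C1R stayed between 0.095 and 0.602 CPM in all 14 libraries and passed in none of the comparisons between targets. C1S was 0.158 and 0.257 CPM in sgNC, 0.204 to 0.624 in sgP1, 0.464 to 1.14 in sgP2 and 0.746 to 1.14 in sgDual. All sgP2 and sgDual libraries were above both controls. C1S rose with sgDual (2.13, SE 0.47, adjusted p 0.00284), which missed the threshold without sgNC replicate 1 (1.83, adjusted p 0.0581). With sgP2 it was 1.83 (SE 0.49, adjusted p 0.0521), and it passed in 5 of 16 alternatives. These were 7 groups by guide (adjusted p 0.0134), DESeq2 (0.0201), no filter on low counts (0.0258), the replicate block (0.0446) and total counts alone (0.0498). Without sgNC replicate 2 C1R passed for sgDual at 2.21 (adjusted p 0.0416), from 1.11 with both controls. C1R and C1S lie 9.2 kb apart on chromosome 12 (chr12:7080199-7092607, minus strand, and chr12:6988259-7071032, plus strand). C1R overlaps C1RL, and C1S overlaps EMG1 and LPCAT3, the last on the opposite strand and at 145 ± 1.80 CPM in BxPC3 NC. How the authors counted reads in shared stretches, and by which strand setting, is not given in the sources used here, so these counts are uncertain to that extent.

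C3 went in opposite directions in the induced lines. In Panc10.05 it was 4.23 and 3.19 CPM in NC, 19.6 and 28.3 with P1-a2 and 46.5 and 41.1 with P2-a8. None of these groups overlapped. C3 rose 6.42-fold with P1-a2 (log2 change 2.68, SE 0.23, adjusted p 4.21e-05) and 11.7-fold with P2-a8 (3.55, SE 0.22, adjusted p 1.33e-05), and it was lower with P1-a2 than with P2-a8 (-0.87, SE 0.18, adjusted p 0.00638). In BxPC3 it was 112 and 109 CPM in NC, 31.3 and 25.4 with P1-a2 and 30.7 and 29.1 with P2-a8. Both isoforms were far below the control, and their libraries overlapped each other. C3 was 3.91-fold lower with P1-a2 (-1.97, SE 0.09, adjusted p 7.59e-08) and 3.69-fold lower with P2-a8 (-1.88, SE 0.09, adjusted p 3.11e-07), with -0.08 between the isoforms (interval -0.28 to 0.12, adjusted p 0.581). In a joint fit of the 12 induced libraries the difference between the lines, Panc10.05 minus BxPC3, was 4.66 for P1-a2 (SE 0.26, adjusted p 4.45e-07) and 5.44 for P2-a8 (SE 0.26, adjusted p 4.58e-07). Line, dose, control construct and count table (each line has its own, with separately numbered libraries) changed together and cannot be told apart.

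C3 was near the bottom of the range in AsPC-1 and rose with dual repression. It was 0.380 and 0.706 CPM in sgNC, 2.38 and 1.79 with sgDual2 and 3.91 and 5.53 with sgDual3, while the 8 sgP1 and sgP2 libraries lay between 0.410 and 1.03. All 4 sgDual libraries were above every other AsPC-1 library. The rise over sgNC was 6.24-fold (log2 change 2.64, SE 0.50, adjusted p 0.000979), and sgDual was also above sgP1 (2.22, SE 0.36, adjusted p 0.000277) and sgP2 (2.50, SE 0.37, adjusted p 9.34e-05). It rested more on sgDual3: without that guide the rise was 1.94 (adjusted p 0.00521), 1.52 over sgP1 and 1.79 over sgP2. sgDual2 was below sgDual3 by 1.18 on the log2 scale, which did not pass (adjusted p 0.0880) but did with the replicate block (adjusted p 0.00708). C3 overlaps GPR108 on the same strand over 649 bases, a gene at 34.9 ± 1.89 CPM in sgNC (n = 2) and 42.9 ± 2.13 in sgDual (n = 4), so its low counts carry the same doubt about shared reads as those of C1R and C1S.

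CFB, the alternative pathway protease, fell with P1-a2 in both induced lines. In Panc10.05 it was 5.52 and 5.59 CPM in NC, 1.31 and 1.5 with P1-a2 and 4.32 and 5.80 with P2-a8. P1-a2 was well below the other groups, which overlapped. The fall with P1-a2 was 3.93-fold (-1.98, SE 0.18, adjusted p 1.79e-12), and P1-a2 was below P2-a8 (-1.83, SE 0.19, adjusted p 6.01e-11); with P2-a8 the change was -0.15 (interval -0.46 to 0.16). In BxPC3 CFB was 3.16 and 3.28 CPM in NC, 1.04 and 1.87 with P1-a2 and 2.63 and 2.73 with P2-a8. The groups did not overlap, but the P1-a2 libraries stood apart from each other. CFB fell with P1-a2 (-1.13, SE 0.26, adjusted p 0.00604), and with P2-a8 it was -0.27 (interval -0.80 to 0.27). Its fall against P2-a8 (-0.87, SE 0.26, adjusted p 0.0350) was lost in the fit of those 2 groups alone (adjusted p 0.0576) and without P1-a2 replicate 1 (-0.51, adjusted p 0.203), P2-a8 replicate 1 (adjusted p 0.0904) or P2-a8 replicate 2 (0.0985), and it was -1.36 without P1-a2 replicate 2.

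In AsPC-1 CFB was 1.14 and 1.96 CPM in sgNC, 2.89 and 3.37 with sgP1E, 1.08 and 1.94 with sgP1J, 1.08 to 1.91 with sgP2 and 3.41 to 4.42 with sgDual. The sgDual libraries were above all others, and the 2 sgP1 guides did not overlap. CFB rose with sgDual over sgNC (1.39, SE 0.37, adjusted p 0.00853), a call lost without sgNC replicate 1 (1.05, adjusted p 0.138). It was also above sgP2 (1.46, SE 0.29, adjusted p 0.000791) and above sgP1 (0.80, SE 0.27, adjusted p 0.0313). The sgP1 difference was past the threshold in 9 of 20 alternatives: it was lost without any of 5 single libraries (sgDual2 replicate 1, both sgDual3 and both sgP1J replicates; adjusted p 0.0564 to 0.0735), without guides sgDual2, sgDual3 or sgP1J (adjusted p 0.0702, 0.181 and 0.176, the last at 0.38), in the fit of those 2 groups alone (0.0501), with no filter on low counts (0.0633) and under a limit of 1 on the log2 change, and without guide sgP1E it was 1.45. Against sgNC, sgP1 without sgP1J was 1.01 higher (adjusted p 0.0347). CFB (chr6:31945650-31952084, plus strand) lies almost wholly within another gene model, ENSG00000244255, that had 0 counts in each of the 26 libraries, and how reads shared with it were counted is not given in the sources used here.

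C5, which starts the terminal pathway, was low in the induced lines and fell in AsPC-1 with dual repression. In AsPC-1 it was 8.59 and 11.1 CPM in sgNC, 10.2 and 12.7 with sgP1E, 7.03 and 6.84 with sgP1J, 6.19 to 9.81 with sgP2 and 5.42, 4.36, 5.20 and 4.36 in the sgDual libraries. All 4 sgDual libraries were below every other library. C5 was the only member that fell with sgDual (-1.03, SE 0.24, adjusted p 0.00443), though not without sgNC replicate 2 (-0.82, adjusted p 0.0634). It was below sgP1 (-0.93, SE 0.20, adjusted p 0.00246; -0.51 without guide sgP1E) and sgP2 (-0.78, SE 0.21, adjusted p 0.00608), the latter not without guide sgDual3 (adjusted p 0.0823). In BxPC3 C5 was 4.24 and 3.82 CPM in NC, 1.91 and 1.81 with P1-a2 and 3.17 and 3.28 with P2-a8. These groups did not overlap. It fell with P1-a2 (-1.11, SE 0.19, adjusted p 0.00101), and with P2-a8 it was -0.32 (interval -0.71 to 0.07). P1-a2 was below P2-a8 (-0.79, SE 0.19, adjusted p 0.0125), which missed without P1-a2 replicate 2, P2-a8 replicate 1 or P2-a8 replicate 2 (adjusted p 0.07292, 0.05003 and 0.05649). In Panc10.05 C5 was 1.32 and 1.51 CPM in NC, 1.69 and 1.22 with P1-a2 and 2.29 and 2.31 with P2-a8, so only P2-a8 was apart from NC. It rose with P2-a8 (0.70, SE 0.23, adjusted p 0.0102), but not by DESeq2 (adjusted p 0.0686) or without NC replicate 1 (0.0845). With P1-a2 the change was 0.04 (interval -0.45 to 0.53), and P1-a2 was below P2-a8 (-0.67, SE 0.22, adjusted p 0.0126), but not by DESeq2 (0.0820) or without P1-a2 replicate 2 (-0.44, adjusted p 0.207). C5 lies on chromosome 9 (chr9:120952335-121050276, minus strand) and C3 on chromosome 19 (chr19:6677704-6730562, minus strand).

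Among the regulators CD55 showed the clearest response to dual repression. It was 272 and 307 CPM in sgNC, 286 and 307 with sgP2D, 257 and 264 with sgP2G, 440 and 495 with sgP1E and 314 and 409 with sgP1J. With sgDual2 it was 2274 and 2445 CPM and with sgDual3 it was 2183 and 2477. The 2 sgDual guides overlapped each other, and all 4 of their libraries were far above every other library of the line. CD55 rose 8.10-fold over sgNC (log2 change 3.02, SE 0.16, adjusted p 1.91e-08), to 397 CPM per kb, and was above sgP1 (2.50, SE 0.12, adjusted p 3.46e-09) and sgP2 (3.07, SE 0.12, adjusted p 3.00e-10). The guides sgDual2 and sgDual3 differed by 0.02 (interval -0.23 to 0.27). The rise over sgNC lay between 2.93 and 3.11 under every alternative run, with adjusted p of at most 2.82e-06.

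Repression of a single isoform class left CD55 much closer to control. All 4 sgP1 libraries were above both sgNC libraries, by 0.52 (SE 0.14, interval 0.22 to 0.81), which did not pass (adjusted p 0.166). It passed with 7 groups by guide (adjusted p 0.0139), by DESeq2 (0.0253), without guide sgP1J (0.69, adjusted p 0.000821) and without sgP1J replicate 1 (0.63, adjusted p 0.0130). The sgP1 guides themselves differed, sgP1E above sgP1J by 0.37 (SE 0.12, adjusted p 0.0474, and 0.0501 when scaled by total counts alone). With sgP2 CD55 was -0.06 from sgNC (interval -0.34 to 0.23). It was lower with sgP2 than with sgP1 (-0.57, SE 0.11, adjusted p 0.0102; -0.37 without guide sgP1E), but not in the fit of those 2 groups alone (adjusted p 0.0673) or without guide sgP2G (0.114).

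**Figure D3:**
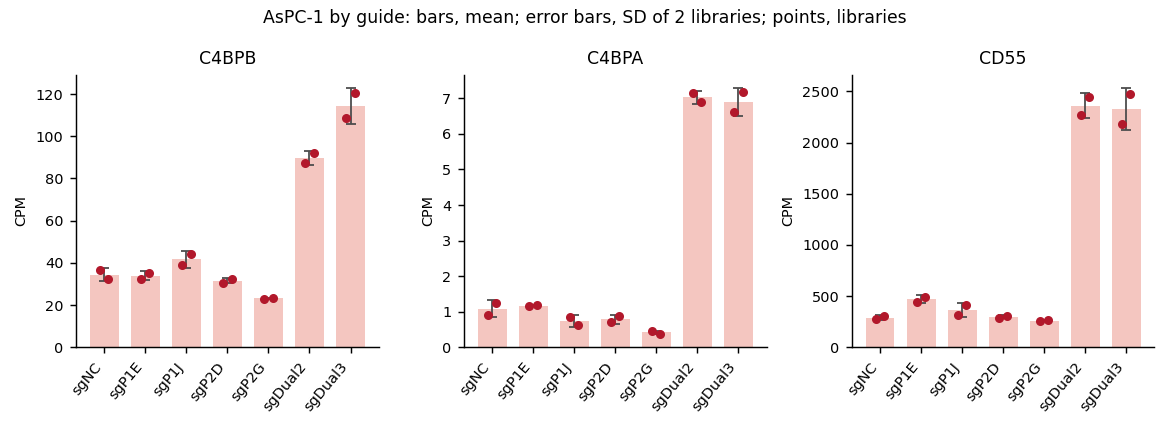
CPM of C4BPB, C4BPA and CD55, the members on chromosome 1, in the 14 AsPC-1 libraries by guide; bars are means, error bars the SD of 2 libraries and points the libraries. Both sgDual guides are above all other guides for each gene, and CD55 reaches 2183 to 2477 CPM there against 272 and 307 in sgNC.

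With HNF4A induced CD55 fell in both lines. In Panc10.05 it was 110 and 116 CPM in NC, 69.5 and 65.5 with P1-a2 and 65.2 and 60.4 with P2-a8. The control libraries were above all induced libraries, and the isoforms lay close together without overlap. CD55 was 1.67-fold lower with P1-a2 (-0.74, SE 0.07, adjusted p 2.90e-13) and 1.80-fold lower with P2-a8 (-0.85, SE 0.07, adjusted p 2.63e-14), and the isoforms differed by 0.10 (interval -0.03 to 0.24). In BxPC3 it was 157 and 168 CPM in NC, 95.7 and 102 with P1-a2 and 120 and 130 with P2-a8. The 3 groups did not overlap. CD55 fell with P1-a2 (-0.72, SE 0.06, adjusted p 1.07e-05) and with P2-a8 (-0.38, SE 0.06, adjusted p 0.00428), and more with P1-a2 (-0.34, SE 0.06, adjusted p 0.00348); without NC replicate 2 the P2-a8 fall just missed (adjusted p 0.0505). The joint fit gave a difference between lines of -0.01 for P1-a2 (interval -0.21 to 0.18) and of -0.46 for P2-a8 (SE 0.09, adjusted p 0.000764).

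C4BPA, the α chain of C4b-binding protein, was 0.919 and 1.25 CPM in sgNC, 1.15 and 1.17 with sgP1E, 0.847 and 0.613 with sgP1J, 0.696 and 0.864 with sgP2D and 0.450 and 0.382 with sgP2G. In the sgDual libraries it was 7.15, 6.62, 6.90 and 7.19 CPM. These 4 libraries were close to each other and far above the rest. C4BPA rose 6.40-fold with sgDual (log2 change 2.68, SE 0.28, adjusted p 8.12e-06), and was above sgP1 (2.86, SE 0.21, adjusted p 3.41e-07) and sgP2 (3.54, SE 0.23, adjusted p 3.82e-08). With sgP2 all libraries were below both sgNC libraries, by -0.86 (interval -1.51 to -0.21), which did not pass (adjusted p 0.141) except with 7 groups by guide (0.0161) or without guide sgP2D (-1.38, adjusted p 0.0485). With sgP1 it was -0.18 (interval -0.79 to 0.43).

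C4BPB, the β chain, was 36.6 and 32.3 CPM in sgNC, 32.4 and 35.3 with sgP1E, 38.8 and 44.4 with sgP1J, 30.7 and 32.3 with sgP2D and 23.0 and 23.5 with sgP2G. With sgDual2 it was 87.4 and 92.0 CPM, and with sgDual3 it was 109 and 121. The sgDual libraries were again above all others, with sgDual3 above sgDual2. C4BPB rose 2.96-fold with sgDual (1.57, SE 0.18, adjusted p 2.06e-05), and was above sgP1 (1.44, SE 0.14, adjusted p 3.53e-06) and sgP2 (1.90, SE 0.14, adjusted p 1.86e-07). It did not pass for sgP1 or sgP2 against sgNC, or for sgP2 against sgP1. With 7 groups by guide it passed for sgP2 against sgNC (-0.35, adjusted p 0.0124) and against sgP1 (-0.47, adjusted p 0.000389). The latter passed in 6 of 20 alternatives, DESeq2 among them (-0.46, adjusted p 0.0190). sgDual2 was 0.35 below sgDual3 (log2 change -0.35, adjusted p 0.108, but 0.00614 with the replicate block), and sgP2D was above sgP2G (0.44, SE 0.09, adjusted p 0.0313). Per length the median ratio of C4BPB to C4BPA was 24.9 in sgNC, 28.8 in sgP1, 36.1 in sgP2 and 11.3 in sgDual, where it ranged from 9.27 to 12.7, below the 19.6 of the lowest other library.

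C4BPB also rose with P1-a2 in both induced lines, from low counts. In Panc10.05 it had 4 and 0 counts in the NC libraries, 46 and 57 with P1-a2 (1.18 and 1.24 CPM) and 28 and 18 with P2-a8 (0.598 and 0.507 CPM). The groups did not overlap, and P1-a2 was highest. The fitted rise was 4.45 with P1-a2 (SE 0.55, adjusted p 3.20e-09) and 3.34 with P2-a8 (SE 0.64, adjusted p 2.86e-05), sizes that rest on the 4 counts of NC replicate 1: without that library they were 8.61 and 7.51, and without NC replicate 2 they were 3.61 and 2.50, past the threshold in each case. P1-a2 was above P2-a8 (1.12, SE 0.35, adjusted p 0.00725), but not by DESeq2 (adjusted p 0.0692) or without replicate 2 of P1-a2 (0.0515) or of P2-a8 (0.0522). In BxPC3 it was 1.08 and 0.792 CPM in NC, 1.94 and 2.46 with P1-a2 and 0.715 and 1.56 with P2-a8. Only P1-a2 was apart from NC. It rose with P1-a2 (1.26, SE 0.35, adjusted p 0.0185), though not without NC replicate 2 (adjusted p 0.135) or P1-a2 replicate 2 (0.116). With P2-a8 it was 0.29 (interval -0.55 to 1.13). P1-a2 was above P2-a8 by 0.96 (adjusted p 0.0648, and 0.0172 with the replicate block or 0.0102 with no filter). That value depended on 1 library at a time, at 1.64 without P2-a8 replicate 2 (adjusted p 0.00778) and 0.52 without P2-a8 replicate 1 (adjusted p 0.347).

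CFI, the protease that degrades C3b and C4b, was tested in BxPC3 and AsPC-1. In AsPC-1 it was 2.22 and 3.56 CPM in sgNC, 2.44 and 4.03 with sgP1E, 3.77 and 7.10 with sgP1J, 1.12, 0.899, 1.94 and 1.31 with sgP2 and 7.86, 8.35, 8.29 and 9.31 with sgDual. The sgDual libraries were highest and the sgP2 libraries below both controls. CFI rose with sgDual (1.55, SE 0.36, adjusted p 0.00456), not without sgNC replicate 1 (1.25, adjusted p 0.0898). It was above sgP2 (2.67, SE 0.31, adjusted p 1.03e-05) and sgP1 (0.98, SE 0.27, adjusted p 0.0116), the latter not without guide sgDual3 (0.0774) or sgP1E (0.0646). With sgP2 it was -1.13 from sgNC (interval -1.92 to -0.33), short of the threshold (adjusted p 0.117) but past it with the replicate block (0.0321) and by DESeq2 (0.0293). sgP2 was below sgP1 (-1.70, SE 0.31, adjusted p 0.00843), but not in the fit of those 2 groups alone (0.0524) or without guide sgP2G (0.0897). In BxPC3 CFI was 1.86 and 1.09 CPM in NC, 3.04 and 3.14 with P1-a2 and 1.32 and 0.827 with P2-a8. P1-a2 was above the other groups, which overlapped. CFI rose with P1-a2 (1.10, SE 0.29, adjusted p 0.0128), not without NC replicate 2 (0.73, adjusted p 0.139) or P1-a2 replicate 2 (0.0582). With P2-a8 it was -0.42 (interval -1.13 to 0.29), and P1-a2 was above P2-a8 (1.52, SE 0.29, adjusted p 0.00400). CFI (chr4:109740694-109802179, minus strand) lies nearly wholly inside another gene model, ENSG00000285330, with at most 2 counts in a library.

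The isoforms were compared directly at equal dose only in BxPC3. There 5 of 8 members differed between P1-a2 and P2-a8, where 22.5% of all genes did (11.6% higher, 10.8% lower): CFI was higher with P1-a2, and C1R, C5, CD55 and CFB were lower. HNF4A was -0.33 lower on the log2 scale with P1-a2 (interval -0.71 to 0.06, adjusted p 0.217). In Panc10.05 6 of 7 differed (46.9% of all genes; 22.2% higher, 24.7% lower), C4BPB being higher with P1-a2 and C1R, C1S, C3, C5 and CFB lower, but HNF4A RNA was also lower there with P1-a2 (-1.66, SE 0.10, adjusted p 5.02e-17) and the doses were unequal. In AsPC-1, 2 of 9 members were lower with sgP2 than with sgP1 (4.3% of all genes; 2.17% higher, 2.13% lower), CD55 and CFI. HNF4A RNA differed there too, at 129 ± 18.4 CPM in sgP1, 86.5 ± 7.74 in sgP2 and 7.99 ± 4.84 in sgDual (SD, n = 4 each). The isoform class targeted and the remaining HNF4A RNA changed together and cannot be told apart, and counts per gene do not separate the isoforms. sgDual differed from sgP1 in 8 of 9, 7 up and 1 down (38.3% of all genes; 18.6% higher, 19.7% lower), and from sgP2 in 7 of 9, 6 up and 1 down (46.4%; 22.8% higher, 23.5% lower). C1S was above sgP1 (1.00, SE 0.31, adjusted p 0.0196), a call lost without guide sgDual2, sgDual3 or sgP1J (adjusted p 0.0717, 0.0900 and 0.136, the last at 0.61) and without sgDual3 replicate 2 or sgP1J replicate 1 (0.0649 and 0.0503), and 1.66 without guide sgP1E.

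Guides to the same target did not always match. Between sgP1E and sgP1J 4 of 9 members differed, where 14.5% of all genes did (7.82% higher with sgP1E, 6.7% lower): CFB (1.05, SE 0.30, adjusted p 0.0300), C5 (0.72, SE 0.20, adjusted p 0.0310) and CD55 were higher with sgP1E, and C4BPB was lower (-0.30, SE 0.09, adjusted p 0.0439, and 0.0691 when scaled by total counts alone). CFI was lower with sgP1E by -0.77 (adjusted p 0.154, and 0.00521 with the replicate block). Between sgP2D and sgP2G 1 of 9 differed, C4BPB (1.69% of all genes; 0.647% higher, 1.05% lower). Between sgDual2 and sgDual3 the count was 0 of 9 (0.883% of all genes; 1423 genes, C3 and C4BPB among them, at an unadjusted p under 0.05; 1 member by DESeq2).

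The lines were compared in the joint fit, as the response in Panc10.05 minus that in BxPC3. For P1-a2 5 of 8 members differed, 4 above 0 and 1 below (36.4% of 19372 genes; 16.3% above, 20.1% below), and for P2-a8 6 of 8, 5 above and 1 below (23.5%; 11.5% above, 11.9% below). Besides C3, these were C4BPB for P1-a2 (3.20, SE 0.77, adjusted p 0.00201) and P2-a8 (3.03, SE 0.82, adjusted p 0.00833), and C5 for P1-a2 (1.158, SE 0.31, adjusted p 0.00471) and P2-a8 (1.02, SE 0.29, adjusted p 0.0121). C4BPB again rested on few control counts: without Panc10.05 NC replicate 1 it was 7.15 and 7.01, and without Panc10.05 NC replicate 2 it was 2.35 and 2.21, the last with an adjusted p of 0.0687. The C5 difference for P2-a8 missed without Panc10.05 NC replicate 1 (adjusted p 0.0518). C1R differed for P2-a8 (1.97, SE 0.32, adjusted p 6.85e-05), and for P1-a2 it was 1.04 (adjusted p 0.0692, and 0.0421 with the replicate block). C1S differed for P2-a8 (2.09, SE 0.36, adjusted p 0.000152) and for P1-a2 (1.17, SE 0.43, adjusted p 0.0337). The latter was 1.83 without Panc10.05 NC replicate 1 and was lost without Panc10.05 NC replicate 2, Panc10.05 P1-a2 replicate 2, BxPC3 NC replicate 2 or BxPC3 P1-a2 replicate 1 (adjusted p 0.0615 to 0.359), falling to 0.77 and 0.75 without the first and second of these. CFB differed for P1-a2 by -0.83 (SE 0.33, adjusted p 0.0493), which was lost under 3 other scalings or tests, with no filter, and without any of 7 of the 8 libraries concerned (adjusted p 0.0504 to 0.5675), BxPC3 P1-a2 replicate 1 being the exception. Without BxPC3 P1-a2 replicate 2 it was -0.33. CFI was 0.23 for P1-a2 (interval -1.66 to 2.13) and 2.19 for P2-a8 (interval -0.16 to 4.54).

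**Figure D4:**
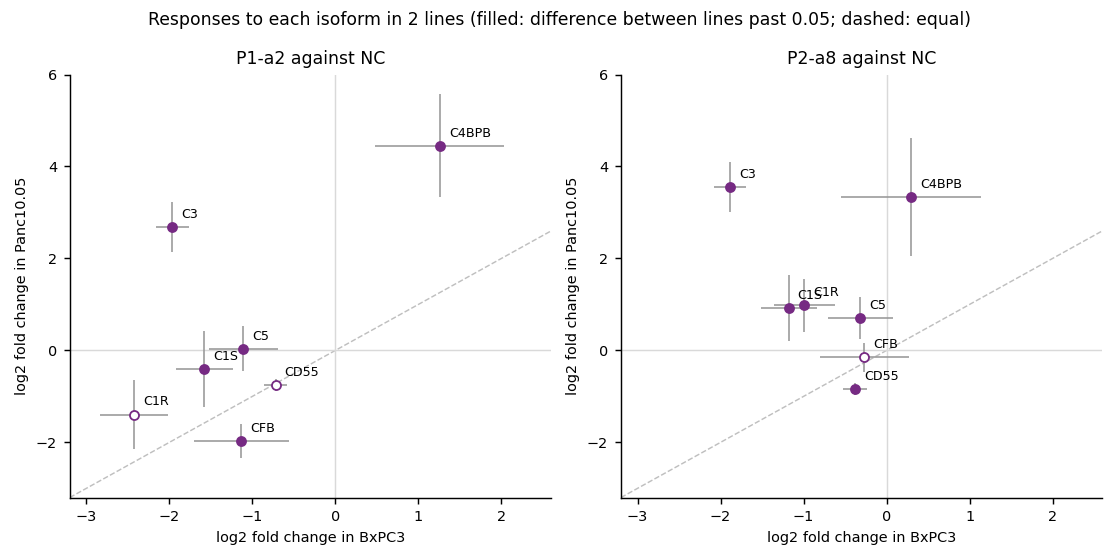
log2 fold change against NC in BxPC3 (x axis) and in Panc10.05 (y axis) for the 7 members tested in both lines, for P1-a2 and P2-a8; lines are 95% intervals, filled points differ between the lines at an adjusted p under 0.05, and the dashed line marks equal change. C3 is at upper left in both panels, and CD55 lies below 0 on both axes.

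Of 45 other complement genes, 16 were tested in Panc10.05, 17 in BxPC3 and 11 in AsPC-1, and 23, 19 and 21 of them had at most 3 counts in every library. With sgDual against sgNC 4 of 11 rose and 2 fell, where 17.8% of all genes rose and 17.8% fell (35.6% in either direction). CD46, a membrane cofactor for factor I that lies 365.3 kb beyond CD55, was 333 ± 20.5 CPM against 218 ± 29 (SD, n = 4 and 2; 0.61, SE 0.10, adjusted p 0.000373), much less of a rise than that of CD55. CFD, the protease that cleaves factor B, rose from 19.8 ± 0.594 to 50.3 ± 15.3 CPM (1.34, SE 0.25, adjusted p 0.00113), and CLU, or clusterin, an inhibitor of the terminal complex, rose from 167 ± 9.08 to 334 ± 61.1 (1.00, SE 0.22, adjusted p 0.00319). No gene of the list passed for sgP1 or sgP2. In Panc10.05 2 of 16 were higher with P1-a2 and 6 lower (31.5% and 30.5% of all genes), with CLU at -1.82 and CD59, which blocks the membrane attack complex, at -0.89. With P2-a8 4 were higher and 5 lower (23.7% and 22.5% of all genes), with CD46 at 0.53, CD59 at -0.58 and CLU at -0.71. In BxPC3 2 of 17 were higher with P1-a2 and 6 lower (17.1% and 14.9% of all genes), with ITGB2 at -1.27 and CLU at -1.02. With P2-a8 2 were higher and 2 lower (4.3% and 2.69%), with ITGB2 at -0.65, C5AR1 at 0.58 and CLU at -0.50. VTN, or vitronectin, an inhibitor of the terminal complex, was too low for the rule on named genes and was chosen after its values were seen. It was 0.048 ± 0.068 CPM in Panc10.05 NC, 0.723 ± 0.115 with P1-a2 and 5.997 ± 0.444 with P2-a8 (SD, n = 2 each), rising with both isoforms (adjusted p 1.92e-07 and 7.07e-19). In BxPC3 it was listed at 0 counts in both NC libraries, at 2.07 ± 0.214 CPM with P1-a2 and at 0.565 ± 0.111 with P2-a8, and in AsPC-1 it was 0.0317 ± 0.0448 in sgNC and 0.343 ± 0.0525 in sgDual. The median change of the tested list genes was -0.48 with P1-a2 and 0.074 with P2-a8 in Panc10.05, 0.047 and 0.10 in BxPC3, and 0.11, 0.076 and 0.52 with sgP1, sgP2 and sgDual. Over all genes tested these medians lay between -0.012 and 0.023.

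The genes whose levels ran most like those of C3, CFB and C4BPA were found by Pearson's r of log2 CPM, centred within each line, over the 26 libraries and 11472 candidates. For C3 they were KRT13 (0.913), LGALS9 (0.902) and S100A4 (0.884). Within single lines KRT13 was at 0.990 in Panc10.05 and 0.931 in AsPC-1 but at 0.561 in BxPC3. There LGALS9 was at 0.913 and S100A4 at 0.906. For CFB the genes were OBSL1 (0.931), BTN3A1 (0.926) and BTN3A2 (0.921), the last 2 a pair of close paralogs whose reads may be shared. For C4BPA they were ANKRD36C (0.944), TANK (0.941) and RHBDF1 (0.936), values that rest on AsPC-1 since C4BPA had at most 1 count per library elsewhere. The libraries share groups, depth and line, so these r values are descriptions.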

How the data were processed

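Poly(A) RNA from 26 libraries of 3 cell lines was sequenced as paired ends. The authors deposited whole-number counts per Ensembl gene, and per the submitters' processing notes the tools were cutadapt 1.16, STAR 2.7.9a, featureCounts 1.6.3 and DESeq2 1.36.0 on GRCh38. The strand setting, the gene annotation and the treatment of reads in overlapping genes are not given in the sources used here. Of the 62703 (Panc10.05 and BxPC3) and 62754 (AsPC-1) genes listed, 99.88% to 99.91% matched a symbol. The number of sample columns left unused was 0.

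The members and gene lists were chosen with earlier results of these data known. Each line was fitted by itself with all its groups in edgeR 4.0.16 (filterByExpr, TMM scaling, robust quasi-likelihood fit, R 4.3.3, limma 3.58.1), with the Benjamini-Hochberg adjustment over the 17247 (Panc10.05), 17635 (BxPC3) and 16992 (AsPC-1) genes tested and a threshold of 0.05. For AsPC-1 both guides of a target were pooled in a single group. Its SDs and p-values thus treat libraries of different guides as replicates, which they are not. Guides were compared with each other in a fit of 7 groups by guide. A joint fit of the 12 induced libraries, over 19372 genes, tested the difference between lines. Intervals are 95% and cover counting error and the spread between libraries. CPM per kb used the summed exon length of GENCODE v29.

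All 9 members were named in every line where tested, though not with a fold change for each comparison. Other complement genes were named if past the threshold, not overlapping between groups and averaging 5 CPM or more across the compared groups, with at most 3 a comparison by size of change. One gene that this rule names is not reported here. The genes most like C3, C4BPA and CFB were the 3 with the highest r on log2 CPM (prior count 2). Replicates of a group differed by more than sampling noise (chi-square per degree of freedom 5.08 to 24.07). Replicate numbers come from the titles. Deviations of same-numbered libraries correlated at -0.04 to 0.03 in the 3 pairs of Panc10.05. They correlated at 0.26 to 0.45 in the 3 of BxPC3 and at 0.24 to 0.70 in the 21 of AsPC-1. The main tests nevertheless carried no term for replicate number in any line. Pairing was used only in the alternative called the replicate block, from the data and not from a stated design. Alternatives were DESeq2 1.42.0, RLE factors or total counts alone, no filter, the replicate block, a fit of 2 groups alone, 7 groups by guide, a limit of 1 on the absolute log2 change, and leaving out each library or guide. Plots were drawn with matplotlib 3.10.9 and tables built with pandas 2.3.3 in Python 3.11.15.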

Additional observations from a re-analysis of the deposited data

Results flagged for a closer look

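The responses to HNF4α isoforms differed between Panc10.05 and BxPC3 for several members, by the test of the difference in the joint edgeR fit (log2 change in Panc10.05 minus that in BxPC3). For P1-a2 the differences were 4.66 for C3, 3.20 for C4BPB, 1.17 for C1S, 1.158 for C5 and -0.83 for CFB. For P2-a8 they were 5.44 for C3, 3.03 for C4BPB, 2.09 for C1S, 1.97 for C1R, 1.02 for C5 and -0.46 for CD55. The C4BPB values rest on 4 and 0 counts in the Panc10.05 controls. Line, dose, control construct and count table changed together. Each of the 9 genes was also looked at for a library far from the rest in the 3 AsPC-1 groups of 4 libraries (27 groups), and none was found.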

How the results depend on the processing

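Over 159 tests of the members and HNF4A and 2067 alternatives, none turned a called direction, 95 took a call below the threshold and 47 brought one past it, and 103 tests kept their side of it throughout. Counts of changed members with 1 library left out ran from 5 to 5 for Panc10.05 P1-a2, 4 to 5 for P2-a8 (6 with all libraries) and 4 to 6 between the isoforms. In BxPC3 they ran from 6 to 8, 2 to 4 and 3 to 4 (5 with all). In AsPC-1 they ran from 0 to 1 for sgP1, 0 to 0 for sgP2, 5 to 8 for sgDual, 2 to 3 for sgP2 against sgP1, 6 to 8 for sgDual against sgP1 and 7 to 7 against sgP2. For the difference between lines they ran from 3 to 5 (P1-a2) and 5 to 6 (P2-a8). Calls over all genes also moved when 1 library was left out, as given below. These member counts are therefore not read as results about the members.

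A limit of 1 on the absolute log2 change left 2 members for Panc10.05 P2-a8 (1663 of 17247 genes). It left 2 for BxPC3 P2-a8 (364 of 17635 genes) and 2 for the BxPC3 isoforms (526). In AsPC-1, with 16992 genes tested, it left 1 for sgP2 against sgP1 (161 genes) and 5 for sgDual against sgP1 (1143). It also left 1 for sgP1E against sgP1J (619) and 0 for sgP2D against sgP2G (124). DESeq2 gave 1 for sgP1, 2 for sgP2 and 1 for sgDual2 against sgDual3. Groups by guide gave 1 for sgP1, 3 for sgP2 (1905 genes) and 4 for sgP2 against sgP1. Total counts alone gave 1 for sgP2 and 2 for sgP1E against sgP1J (2445 genes), and no filter gave 1 for sgP2 and 2 for sgDual2 against sgDual3. The fit of 2 groups alone gave 0 for sgP2 against sgP1 (189 genes). Without guide sgP1J the count was 2 for sgP1 (1242 genes) and 4 for sgP2 against sgP1. For the latter it was 4 without sgP1E (2764 genes) and 0 without sgP2G. Without sgP2D it was 1 for sgP2, and without sgDual3 it was 5 for sgDual against sgP1 (4320 genes). Calls over all genes thus moved with these settings. Where no such number stands beside a member count, here or above, that count is not read as a result about the members. The cause was not tested.

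The replicate block gave 2 members for sgP2 and 2 for sgDual2 against sgDual3 (558 of 16992 genes). Blocked values that changed a call stand beside those results, and no other member's call changed with the pairing. In Panc10.05 same-numbered libraries did not deviate together, and no member's call changed there.

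Over all genes the block raised the calls from 5652 to 7333 (BxPC3 P1-a2), 1232 to 2886 (P2-a8), 3963 to 5992 (isoforms), 2467 to 4616 (sgP1E against sgP1J), 288 to 778 (sgP2D against sgP2G) and 150 to 558 (sgDual2 against sgDual3). Without NC replicate 2 the 1232 calls fell to 495, and without P2-a8 replicate 1 the 3963 fell to 2538. The 45 genes called for sgP1 became 1 without sgNC replicate 2 and 1242 without guide sgP1J, and the 581 for sgP2 became 57 without sgNC replicate 2 and 1905 by guide. The 731 for sgP2 against sgP1 ranged from 161 to 2764, and the 6048 for sgDual fell to 2775 without sgNC replicate 1. The limit of 1 cut the Panc10.05 calls to 3385 (P1-a2), 1663 (P2-a8) and 1455 (isoforms). Scaled by total counts alone, the share of higher calls went from 37.8% to 47.9% for sgP1 (56.0% by DESeq2) and from 48.5% to 59.1% for sgP2. With 2 libraries a group, members under 1 CPM rest on few counts.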
